A study of Mus musculus with 48 samples.

Results

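The chemokine genes Ccl3, Ccl4, Ccl5 and Xcl1 were followed through 33 ATAC-seq peaks among the 53868 peaks of the deposited table. ATAC-seq reads mark chromatin that the Tn5 transposase can reach. A peak was assigned to a gene when it overlapped the body of that protein-coding gene, and to the gene with the boundary nearest the middle of the peak when it overlapped several. A peak that overlapped no gene body went to the nearest body within 100 kb. This gave Ccl3 4 peaks, Ccl4 4 peaks, Ccl5 7 peaks and Xcl1 18 peaks.

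The cells were OT-1 CD8 T cells, whose receptor recognises a peptide of ovalbumin, from CD45.1 donors that express Cas9. The donor cells were naive-like spleen cells given a single guide RNA and an ametrine reporter by lentivirus. They were transferred into young or aged mice a day before B16-OVA melanoma cells, which make ovalbumin, and were sorted from the tumours on day 15. The labels name 3 guide groups, Zfp219KO, Dusp5KO and the control OTC, and call the sorted populations Tprog (Slamf6+ Tim-3-, progenitor exhausted), Ttran (Slamf6+ Tim-3+, transitory), Tterm (Slamf6- Tim-3+, terminally exhausted) and Ttad (Slamf6- Tim-3-, age-associated dysfunctional). Titles marked A were taken to mean aged hosts and those marked Y young hosts; the hosts' ages in weeks are not given in the sources used here. Each guide was profiled in all 4 populations from aged hosts and in Tprog, Ttran and Tterm from young hosts, which gives 21 groups. The 3 young Ttran and the 3 young Tterm groups held 3 libraries each, and the other 15 groups held 2, for 48 libraries in all. Cells of several mice were pooled into each library, and which mice went into which pool is not stated, so the p-values measure the spread between these pools.

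Ccl3, Ccl4 and Ccl5 encode secreted chemokines that activated CD8 T cells and natural killer cells release. They attract monocytes, T cells and dendritic cells. Ccl3 and Ccl5 act on the receptor Ccr1, among others, and Ccl5 also on Ccr3. Xcl1 encodes lymphotactin, whose receptor Xcr1 is found on cross-presenting dendritic cells. Ccl3, Ccl4 and Ccl5 lie in a cluster of CC chemokine genes on chromosome 11, and Xcl1 lies on chromosome 1.

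In the mouse build GRCm38, Ccl5 spans chr11:83525778-83530518, Ccl3 chr11:83647843-83649378, Ccl4 chr11:83648624-83664683 and Xcl1 chr1:164931644-164935522 in RefSeq. The RefSeq span of Ccl4 overlaps that of Ccl3. The peak at the start of Ccl3 (chr11:83648298-83649947) overlaps both spans and went to Ccl3 by the nearest boundary. Which exons or introns the peaks cover was not analysed here. A peak outside a gene body is called below by its distance in base pairs from that body. Higher coordinates are upstream of Ccl3 and Xcl1, which lie on the minus strand. All 3 distal Ccl3 peaks lie downstream of the gene, and 13 of the 18 Xcl1 peaks lie upstream.

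A peak covered the annotated start of both genes for which RefSeq promoters were on hand, Xcl1 and Ccl3. Their promoters, 250 bases before to 50 bases after the start, are shown because these start peaks moved in opposite directions between Tprog and Tterm. They are from RefSeq on GRCm38.p6, minus strand, Xcl1 at chr1:164935473-164935772 and Ccl3 at chr11:83649329-83649628. Capitals mark matches on either strand to a TATA box (TATAA), a RUNX motif (TGTGGT), a T-box motif (GGTGTGA) or an AP-1 motif (TGANTCA).
Xcl1: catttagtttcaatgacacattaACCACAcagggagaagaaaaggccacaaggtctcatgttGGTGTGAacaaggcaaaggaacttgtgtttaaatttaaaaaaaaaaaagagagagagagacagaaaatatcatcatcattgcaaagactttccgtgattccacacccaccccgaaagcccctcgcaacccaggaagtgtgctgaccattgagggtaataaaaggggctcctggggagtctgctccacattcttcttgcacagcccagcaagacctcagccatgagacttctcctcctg
Ccl3: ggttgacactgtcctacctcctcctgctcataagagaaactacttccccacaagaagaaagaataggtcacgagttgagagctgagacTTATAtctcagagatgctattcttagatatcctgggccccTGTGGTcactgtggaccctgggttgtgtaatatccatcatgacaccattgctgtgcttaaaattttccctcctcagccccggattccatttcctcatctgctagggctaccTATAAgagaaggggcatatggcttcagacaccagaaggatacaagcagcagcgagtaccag

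Both promoters held a RUNX match, at offset -227 from the start in Xcl1 and -122 in Ccl3, as did 16.8% of all 32851 promoters of that length. The Xcl1 promoter also held a T-box match at offset -188, which 3.98% of promoters hold. The Ccl3 promoter held TATAA matches at offsets -11 and -162, and 24.9% of promoters hold at least 1. Neither window held the AP-1 letters, found in 7.81% of promoters. No 2 of these matches overlapped. A match of letters is a description of the sequence and not a measured binding site.

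The sums of recovered reads over all peaks ran from 5638413 to 16159054 in the 24 aged libraries and from 6589023 to 29942755 in the 24 young ones. Aged and young libraries each carry their own run of sample numbers, and no label names a batch. If the ages were handled in separate batches, host age and batch cannot be told apart. All 8 T cell marker genes had peaks, the strongest of each with a mean of 664 to 1737. No peak was assigned to Lyz2, Csf1r or Adgre1 of 8 myeloid markers, to Ms4a1, Cd79a or Cd79b of 5 B cell markers, to Tyr, Dct or Tyrp1 of 7 melanoma markers, or to Foxp3. The rest of these lists did have peaks. The strongest of each gene had a mean of 187 to 593 at 5 myeloid, 142 to 211 at 2 B cell and 168 to 527 at 4 melanoma genes, and 349 at Cd4. Peaks of the other marker genes moved with Tprog and Tterm: the summed value at both natural killer markers was 2651 to 2861 in aged Tprog and 2156 to 2437 in aged Tterm, and 2695 to 2928 against 2210 to 2583 in young hosts. In young hosts the summed values also did not overlap at the myeloid (3586 to 3830 in Tprog, 3273 to 3522 in Tterm), B cell (767 to 1012, 606 to 744), melanoma (1423 to 1633, 1242 to 1328) and T cell lists (24276 to 26355, 21365 to 23961). In aged hosts they did not overlap at Cd4 (168 to 326, 348 to 499). The part of other cells in the results was not tested. In sorted bulk populations, fewer cells with an open site and less opening per cell cannot be told apart.

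Values are the authors' normalized read counts per peak, given per library in the order of the replicate numbers. They depend on peak width, so levels are compared between genes only per kilobase. Differences are log2 fold changes from limma on log2(value + 1), fitted to all 48 libraries, with p-values adjusted by Benjamini-Hochberg over all 53868 peaks. Calls were made at adjusted p values under 0.05.

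Ccl3 was less accessible in Tprog than in Tterm at each of its 4 peaks in OTC cells of both ages, with Ttad in between in aged hosts. At the Ccl3 start peak (chr11:83648298-83649947), aged OTC values were 453 and 565 in Tprog, 979 and 862 in Ttran, 975 and 919 in Tterm, and 682 and 585 in Ttad. In young OTC hosts they were 583 and 626 in Tprog, 925, 930 and 906 in Ttran, and 870, 827 and 917 in Tterm. Tprog was the lowest population at both ages, with no overlap with Ttran or Tterm. The Tprog to Tterm difference was -0.90 (SE 0.10, adjusted p = 1.83e-11) in aged and -0.53 (SE 0.09, adjusted p = 5.74e-06) in young hosts.

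The distal Ccl3 peak at 17572 bp (chr11:83628444-83630271) separated the populations more widely. Aged OTC values were 502 and 524 in Tprog, 1503 and 1398 in Ttran, 1613 and 1716 in Tterm, and 1006 and 954 in Ttad. Young OTC values were 549 and 530 in Tprog, 1410, 1508 and 1392 in Ttran, and 1579, 1530 and 1512 in Tterm. The Ttad libraries lay between Tprog and the other populations without touching either. Tprog was lower than Tterm with a log2 difference of -1.70 (SE 0.08, adjusted p = 1.12e-31) in aged and -1.51 (SE 0.08, adjusted p = 7.04e-32) in young hosts. Over all 3 guides, aged values ran from 440 to 524 in 6 Tprog libraries, 813 to 1093 in 6 Ttad libraries and 1448 to 1716 in 6 Tterm libraries.

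At the strongest Ccl3 peak, 6367 bp from the gene (chr11:83639015-83641476), the step from Tprog to Tterm differed between the ages. Aged OTC values were 1033 and 1071 in Tprog, 2082 and 1931 in Ttran, 2165 and 2133 in Tterm, and 1288 and 1459 in Ttad. In young hosts Tprog stood at 1396 and 1398, Ttran at 2007, 2005 and 1977, and Tterm at 1994, 1813 and 1930. Aged Tprog was thus the lower of the Tprog groups and aged Tterm the higher of the Tterm groups. The Tprog to Tterm difference was -1.03 (SE 0.07) in aged and -0.45 (SE 0.06) in young hosts, and the difference between these was -0.58 (SE 0.09, limma adjusted p = 1.47e-05). The peak at 10502 bp followed the same order of populations, with differences of -1.0 (SE 0.13) in aged and -0.75 (SE 0.12) in young hosts.

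Ccl4 showed the same order as Ccl3. Its strongest peak lies inside the RefSeq span (chr11:83662011-83663828) and read 333 and 372 in aged OTC Tprog, 626 and 572 in Ttran, 693 and 710.2 in Tterm, and 521 and 431 in Ttad. Young OTC values there were 433 and 477 in Tprog, 714, 651 and 777 in Ttran, and 825, 738 and 780 in Tterm. Tprog did not overlap Ttran or Tterm at either age, and the Tprog to Tterm difference was -0.99 (SE 0.11, adjusted p = 2.50e-12) in aged and -0.78 (SE 0.10, adjusted p = 4.56e-10) in young hosts. A second body peak (chr11:83657239-83658290) was at 320.4 and 252 in aged OTC Tprog against 713 and 744 in Tterm, a difference of -1.35 (SE 0.11); the young difference was -0.96 (SE 0.10).

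The Ccl4 peak at 695 bp on the higher-coordinate side (chr11:83665378-83666207) had the widest step of the 15 chromosome 11 members. It read 51.0 and 46.1 in aged OTC Tprog, 209 and 236 in Ttran, 238 and 238 in Tterm, and 80.5 and 143 in Ttad. Young OTC values were 78.8 and 81.3 in Tprog, 227, 214 and 215 in Ttran, and 283, 222 and 230 in Tterm. Tprog was the lowest population at both ages, by -2.27 (SE 0.23, adjusted p = 1.13e-13) against Tterm in aged and -1.59 (SE 0.21, adjusted p = 1.40e-09) in young hosts. The remaining Ccl4 body peak (chr11:83654341-83655313) differed by -0.71 (SE 0.16, adjusted p = 0.000485) in aged and -0.44 (SE 0.15, adjusted p = 0.0199) in young OTC cells. The young call ended without young OTC Tprog replicate 2 (-0.28, adjusted p = 0.33) and without young OTC Tterm replicate 1 (-0.34, adjusted p = 0.132).

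Ccl5 also had lower values in Tprog, with steps that varied among its 7 peaks. The strongest, 3450 bp on the higher-coordinate side (chr11:83533968-83535652), read 1118 and 1077 in aged OTC Tprog, 1558 and 1717 in Ttran, 1584 and 1640 in Tterm, and 1353 and 1533 in Ttad. Young OTC values were 1331 and 1424 in Tprog, 1725, 1742 and 1408 in Ttran, and 1535, 1515 and 1540 in Tterm. This peak was the least different of the Ccl5 peaks: the Tprog to Tterm difference was -0.55 (SE 0.08, adjusted p = 2.46e-08) in aged hosts, and it was not called in young hosts (-0.15, adjusted p = 0.113).

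The second strongest Ccl5 peak, at 19184 bp (chr11:83549702-83551302), read 412 and 468 in aged OTC Tprog, 704 and 837 in Ttran, 727 and 740 in Tterm, and 488 and 477 in Ttad. Young OTC values were 537 and 547 in Tprog, 755, 671 and 678 in Ttran, and 642, 682 and 572 in Tterm. Ttad was thus near Tprog and below Ttran and Tterm in aged hosts. The Tprog to Tterm difference was -0.74 (SE 0.11, adjusted p = 1.54e-07) in aged hosts and -0.22 (SE 0.10, adjusted p = 0.112) in young hosts, where it was not called.

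The Ccl5 peak at 5990 bp (chr11:83536508-83537327) read 266 and 245 in aged OTC Tprog, 608 and 523 in Ttran, 491 and 631 in Tterm, and 377 and 328 in Ttad. In young hosts it read 289 and 389 in Tprog, 614, 533 and 471 in Ttran, and 585, 612 and 548 in Tterm. Tprog lay below Ttran and Tterm at both ages, with a Tprog to Tterm difference of -1.12 (SE 0.14) in aged and -0.79 (SE 0.13) in young hosts. The peak at 10321 bp (chr11:83540839-83541394) differed by -1.41 (SE 0.20) and -0.98 (SE 0.18), and the body peak at chr11:83527214-83528450 by -1.47 (SE 0.18) and -1.14 (SE 0.16). The other Ccl5 body peak (chr11:83530055-83530745), chosen for mention after its values were seen, differed by -0.94 (SE 0.13) and -0.81 (SE 0.12). The weakest Ccl5 peak, 1090 bp on the lower-coordinate side (chr11:83524292-83524688), had values of 15.9 and 25.7 in aged OTC Tprog against 46.8 and 46.7 in Tterm. Its aged call (-1.17, adjusted p = 0.0113) ended without aged OTC Tprog replicate 1 (-0.84, adjusted p = 0.221), Tterm replicate 1 (-1.17, adjusted p = 0.0637) or Tterm replicate 2 (-1.17, adjusted p = 0.0611). Its young call (-1.0, adjusted p = 0.0151) ended without young OTC Tprog replicate 1 (-0.86, adjusted p = 0.145) or Tterm replicate 2 (-0.92, adjusted p = 0.0539).

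Xcl1 ran the other way between Tprog and Tterm: every Xcl1 peak called between them in OTC cells was higher in Tprog. These were 6 peaks in aged hosts (8.88% of all peaks were called higher) and 12 in young hosts (13.9%). In aged OTC cells the highest population at an Xcl1 peak was Tprog, Ttad or Ttran, depending on the peak. The Xcl1 start peak (chr1:164935232-164936345) read 888 and 701 in aged OTC Tprog, 504 and 505 in Ttran, 497 and 433 in Tterm, and 744 and 654 in Ttad. Young OTC values were 685 and 611 in Tprog, 431, 446 and 394 in Ttran, and 329, 268 and 286 in Tterm. In young hosts the 3 populations fell in the order Tprog, Ttran, Tterm without overlap, whereas in aged hosts Ttad lay near Tprog and above Ttran and Tterm. Tprog exceeded Tterm by 0.76 (SE 0.13, adjusted p = 2.44e-06) in aged and 1.14 (SE 0.12, adjusted p = 2.65e-13) in young hosts.

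**Figure D1:**
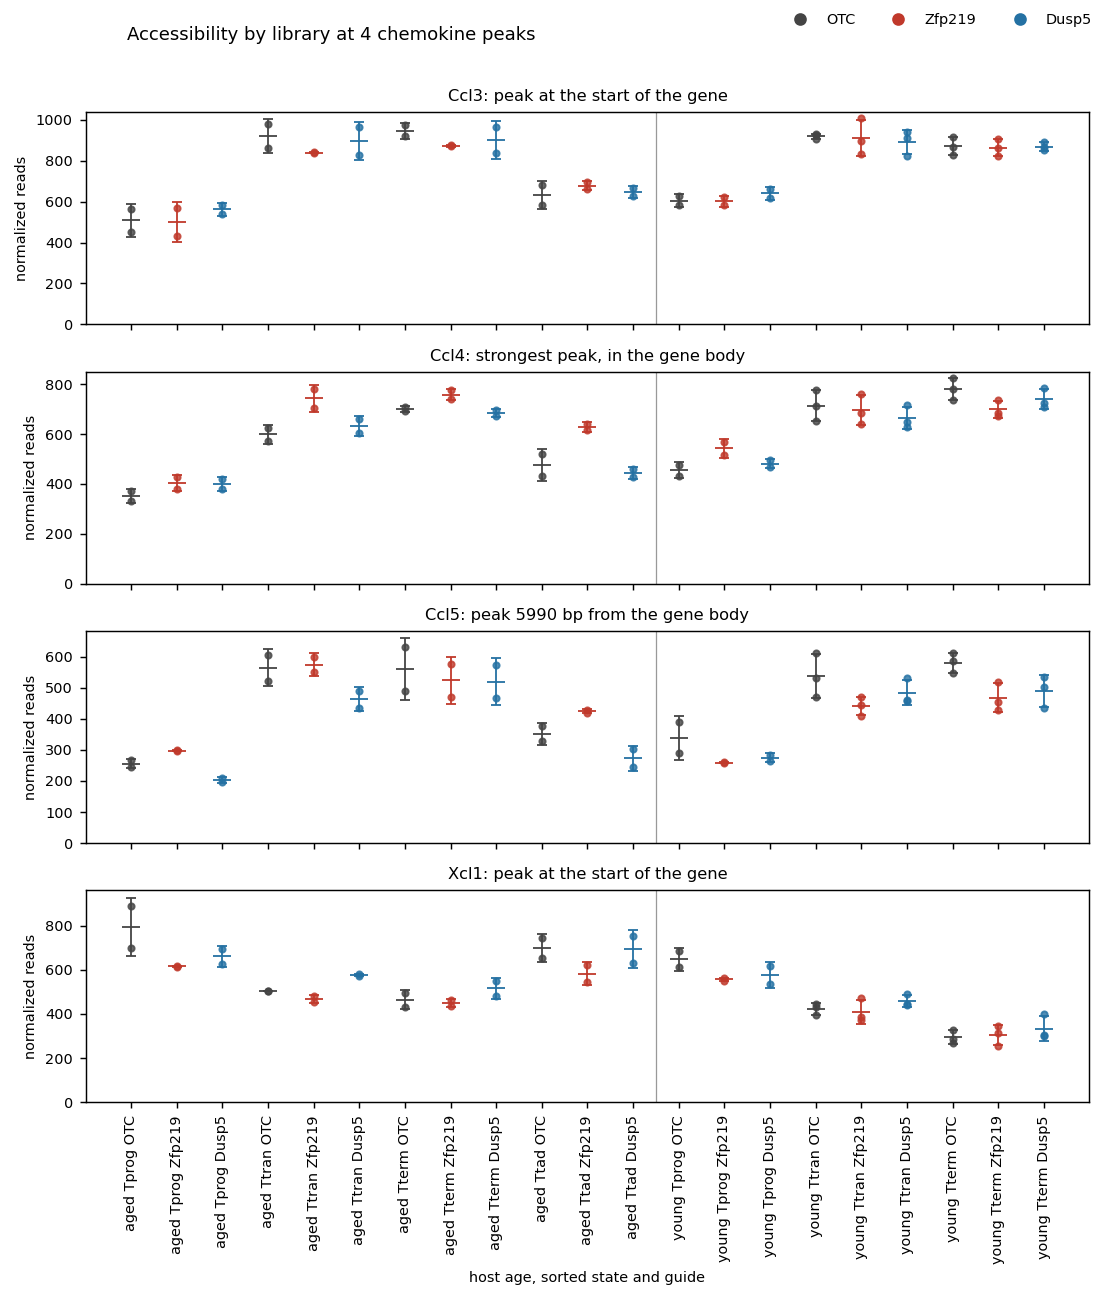
Normalized reads (y axis, per peak and library) at the Ccl3 start peak, the strongest Ccl4 peak, the Ccl5 peak at 5990 bp and the Xcl1 start peak in the 21 groups (x axis, aged left and young right of the line). Points are libraries coloured by guide, and bars are the mean ± SD of each group; within each age and guide the 3 CC chemokine peaks are lowest in Tprog, and the Xcl1 peak is higher there than in Tterm.

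The largest step of any member was at the Xcl1 peak 48721 bp downstream (chr1:164881843-164882923), which in OTC cells had low values outside Tprog. It read 115 and 140.2 in aged OTC Tprog, 30.1 and 25.5 in Ttran, 9.81 and 11 in Tterm, and 31.9 and 30.8 in Ttad. Young OTC values were 106 and 95.0 in Tprog, 15.5, 17.2 and 2.11 in Ttran, and 8.85, 12.6 and 7.87 in Tterm. Over all 3 guides, 6 aged Tprog libraries ran from 99.5 to 203 and 6 aged Tterm libraries from 3.26 to 17.4. The 6 aged Ttad libraries ran from 16.2 to 110.3 and so overlapped Tprog. The OTC difference was 3.49 (SE 0.59, adjusted p = 2.12e-06) in aged and 3.26 (SE 0.54, adjusted p = 9.44e-07) in young hosts.

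Upstream of Xcl1, the peak at 53981 bp (chr1:164989503-164990398) was at 212 and 210.3 in aged OTC Tprog against 78.4 and 75.1 in Tterm, and at 112 and 131 against 20.2, 31.5 and 22.5 in young hosts. Its differences were 1.45 (SE 0.32, adjusted p = 0.000286) and 2.27 (SE 0.29, adjusted p = 6.77e-10). The peak at 23956 bp (chr1:164959478-164961018) was also higher in Tprog at both ages, by 0.50 (SE 0.12) and 0.54 (SE 0.11). Both thus moved with the start peak. Of the other calls in aged OTC cells, that at 30287 bp, the strongest Xcl1 peak (chr1:164965809-164966846), ended without aged OTC Tprog replicate 1 (0.17, adjusted p = 0.363) or Tterm replicate 2 (0.06, adjusted p = 0.787). That at 32081 bp downstream (0.57, adjusted p = 0.0384) ended without any 1 of the 4 libraries, with values from 0.46 (without aged OTC Tterm replicate 2, adjusted p = 0.244) to 0.67 (without aged OTC Tterm replicate 1, adjusted p = 0.0649).

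More Xcl1 peaks were called in young (12) than in aged OTC cells (6). The share of all peaks called higher in Tprog was also larger in young hosts, 13.9% against 8.88%. Young OTC Tterm held 3 libraries and aged OTC Tterm 2, and the part of this in the counts was not tested. The peak at 9815 bp (chr1:164945337-164946134) read 405 and 489 in young OTC Tprog against 196, 178 and 188 in Tterm, a difference of 1.24 (SE 0.14, adjusted p = 4.35e-12). In aged hosts it read 467 and 415 in Tprog, 324 and 420 in Tterm and 599 and 586 in Ttad, and Tprog and Tterm overlapped. The strongest peak at 30287 bp was higher in young Tprog (1225 and 1147) than in young Tterm (684, 771 and 774), by 0.68 (SE 0.08, adjusted p = 3.68e-11). In aged hosts its Tprog values were 1366 and 1247 and its Tterm values 1251 and 984, and these aged Tterm libraries lay above the young ones. The peak at 52272 bp (chr1:164987794-164988509) was called in young hosts, by 1.13 (SE 0.22, adjusted p = 2.22e-05). The weaker peak at 16178 bp (chr1:164951700-164952489) read 110.3 and 76.1 in young OTC Tprog against 36.0, 49.5 and 30.9 in Tterm, and 108 and 105 against 47.9 and 77.9 in aged hosts. Its differences were 1.25 (SE 0.32, adjusted p = 0.00151) in young and 0.79 (SE 0.35, adjusted p = 0.105) in aged hosts, and the young call ended without young OTC Tprog replicate 1 (0.98, adjusted p = 0.0802).

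Counted over the 33 members, 21 were called between aged OTC Tprog and Tterm, 6 higher in Tprog (8.88% of all peaks) and 15 lower (11.2%), against 20.1% of all peaks in either direction. The 15 that were lower were all peaks of Ccl3, Ccl4 and Ccl5, and the 6 that were higher were Xcl1 peaks. In young OTC cells 25 members were called (26.5% of all peaks), 12 higher (13.9%), all of Xcl1, and 13 lower (12.6%), of which 4 belonged to Ccl3, 4 to Ccl4 and 5 to Ccl5. The median log2 fold change in aged OTC cells was -1.01 over the Ccl3 peaks, -1.17 over Ccl4, -1.12 over Ccl5 and 0.49 over Xcl1, beside 0.01 over all peaks. In young OTC cells it was -0.64, -0.87, -0.81 and 0.78, beside 0.01.

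The same comparison in the other guide groups was added after seeing the data. It called 22 members in aged Zfp219 cells (18.8% of all peaks), 20 in aged Dusp5 cells (22.9%), 25 in young Zfp219 cells (26.8%) and 26 in young Dusp5 cells (29.8%). With the guides together, all 6 aged Tprog libraries lay below all 6 aged Tterm libraries at each of the 4 Ccl3, 4 Ccl4 and 7 Ccl5 peaks, where 7.86% of all peaks did so. They lay above them at 4 of the 18 Xcl1 peaks (6.73% of all peaks). In young hosts, the 6 Tprog libraries lay below the 9 Tterm libraries at 4 Ccl3, 3 Ccl4 and 5 Ccl5 peaks (8.99% of all peaks) and above them at 12 Xcl1 peaks (11%).

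**Figure D2:**
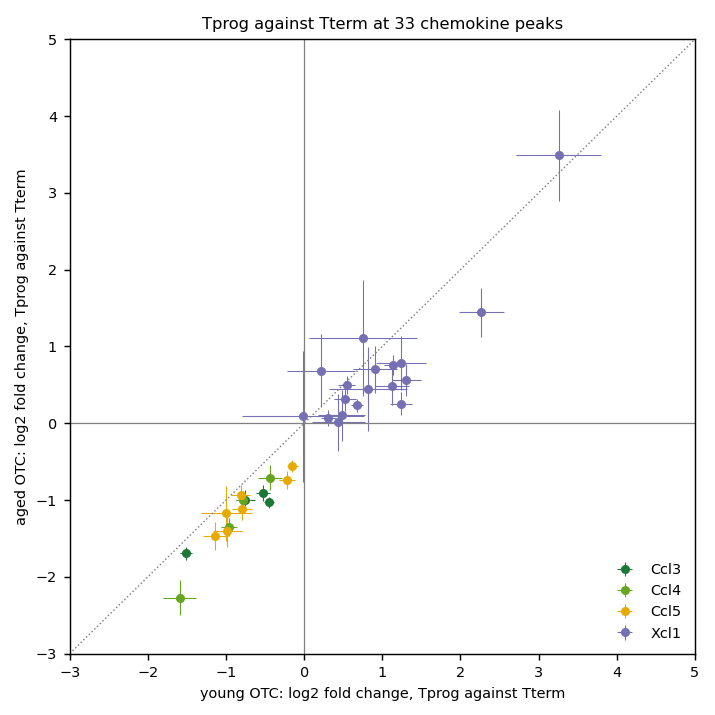
Log2 fold change from Tterm to Tprog in young OTC (x axis) and aged OTC cells (y axis) for each of the 33 member peaks, with SE bars, coloured by gene; the dotted line marks equal values. Ccl3, Ccl4 and Ccl5 peaks lie below 0 on both axes, and the Xcl1 peak 48721 bp downstream lies at 3.26 and 3.49.

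Set against each other per kilobase of peak, the Xcl1 start peak exceeded the Ccl3 start peak in Tprog and not in Tterm. The ratio of Xcl1 to Ccl3 had a median of 1.88 (range 1.59 to 2.90) over 6 aged Tprog libraries, 1.55 (1.16 to 1.67) over 6 Ttad libraries, 0.857 (0.762 to 1.02) over 6 Ttran libraries and 0.769 (0.699 to 0.853) over 6 Tterm libraries. In young hosts the medians were 1.42 (1.20 to 1.74) in Tprog, 0.697 (0.565 to 0.838) in Ttran and 0.528 (0.458 to 0.663) in Tterm. Tprog and Tterm thus did not overlap in this ratio at either age.

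Ttran stood above Tprog at the CC chemokine genes and close to Tterm in value. Between aged OTC Ttran and Tprog 18 members were called (17% of all peaks), 15 higher in Ttran (9.99%) and 3 lower (6.98%), with all 4 Ccl3, all 4 Ccl4 and 6 of 7 Ccl5 peaks higher. The other higher member was the Xcl1 peak at 39786 bp (0.29, adjusted p = 0.0323), and the 3 lower ones were Xcl1 peaks too. The call at 39786 bp ended without aged OTC Tprog replicate 1 (0.32, adjusted p = 0.0841), Tprog replicate 2 (0.26, adjusted p = 0.185) or Ttran replicate 1 (0.19, adjusted p = 0.335), and under quantile normalization (0.19, adjusted p = 0.211). In young OTC cells 23 were called (16.9%), 15 higher in Ttran (9.07%), which were all the Ccl3, Ccl4 and Ccl5 peaks, and 8 lower (7.82%), all of Xcl1. Between young OTC Ttran and Tterm the 7 members called (8.38%) were Xcl1 peaks that were higher in Ttran (5.02%). The median Ttran to Tterm difference was -0.01 over the Ccl3 peaks, -0.13 over Ccl4, 0.08 over Ccl5 and 0.35 over Xcl1, beside 0.01 over all peaks. The Xcl1 start peak differed there by 0.53 (SE 0.11, adjusted p = 0.000251) and the 9815-bp peak by 0.66 (SE 0.12, adjusted p = 8.06e-05). Between aged OTC Ttran and Tterm 1 member was called (3.22%), higher in Ttran (1.87%), the Xcl1 peak at 39786 bp (0.36, adjusted p = 0.0279). That call ended without aged OTC Tterm replicate 1 (0.36, adjusted p = 0.163), Tterm replicate 2 (0.36, adjusted p = 0.124) or Ttran replicate 1 (0.26, adjusted p = 0.277).

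**Figure D3:**
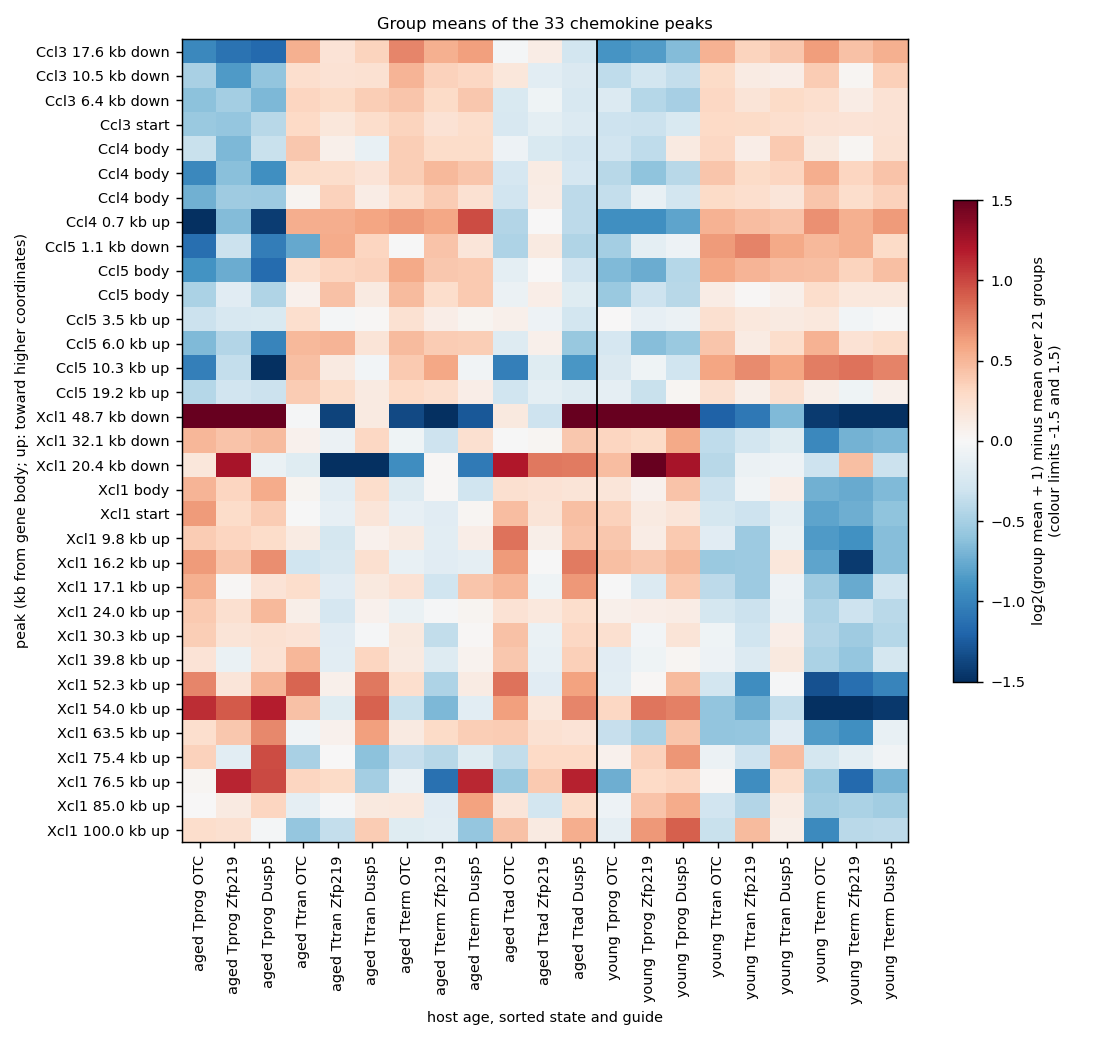
Log2(group mean + 1) of the 33 member peaks (rows, by gene) in the 21 groups (columns), minus the mean of that peak over the groups; the colour scale ends at ±1.5. In the row labels, up and down mean toward higher and lower coordinates; Ccl3, Ccl4 and Ccl5 rows are low in Tprog columns, and most Xcl1 rows are high there and low in young Tterm.

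Ttad, sorted from aged hosts alone, stood between Tprog and Tterm at Ccl3 and Ccl4. Against aged OTC Tprog 11 members were called (6.55% of all peaks), 10 higher in Ttad (3.82%) and 1 lower (2.73%). The count was 7 without aged OTC Tprog replicate 1 and 7 without aged OTC Ttad replicate 1. Among those called whichever library was left out were the Ccl3 peaks at 17572 bp (0.93, SE 0.08, adjusted p = 1.07e-14) and 6367 bp (0.38, SE 0.07, adjusted p = 7.24e-05), the second Ccl4 body peak (0.73, SE 0.11, adjusted p = 3.82e-06) and the Ccl5 peak at 3450 bp (0.39, SE 0.08, adjusted p = 0.000383). The 1 lower member was the Xcl1 peak 48721 bp downstream (-1.99, adjusted p = 0.0255). Its call ended without any 1 of the 4 libraries, with -1.85 (adjusted p = 0.171) without aged OTC Tprog replicate 2 and -2.13 (adjusted p = 0.108) without aged OTC Tprog replicate 1 as the range.

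Against aged OTC Tterm 14 members were called (7.28% of all peaks), 11 lower (4.26%) and 3 higher (3.02%) in Ttad. The Ccl3 peak at 17572 bp was lower by -0.76 (SE 0.08, adjusted p = 2.28e-11), the strongest Ccl4 peak by -0.56 (SE 0.11, adjusted p = 0.000133) and the Ccl5 peak at 10321 bp by -1.41 (SE 0.20, adjusted p = 2.34e-07). At that last peak Ttad read 90.5 and 73.9, level with the 84.9 and 79.0 of Tprog and below the 254 and 189 of Tterm; the Ttad to Tprog difference was -0.00 with an SE of 0.20. The 3 higher members were Xcl1 peaks. The 9815-bp peak (0.68, adjusted p = 0.00127) lost its call without aged OTC Tterm replicate 1 (0.50, adjusted p = 0.133). The start peak (0.59, adjusted p = 0.00118) lost it without Ttad replicate 1 (0.49, adjusted p = 0.0598) or Tterm replicate 2 (0.49, adjusted p = 0.0651). The 30287-bp peak (0.30, adjusted p = 0.0216) lost it without Ttad replicate 1 (0.32, adjusted p = 0.0787), Ttad replicate 2 (0.28, adjusted p = 0.129) or Tterm replicate 2 (0.12, adjusted p = 0.626).

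Against aged OTC Ttran 11 members were called (7.74% of all peaks), 9 lower (4.72%) and 2 higher (3.02%) in Ttad. In the other guide groups, compared after seeing the data, Ttad against Tprog called 10 members in aged Zfp219 cells (7.65%; 6 without aged Zfp219 Ttad replicate 2) and 7 in aged Dusp5 cells (7.33%; 4 without aged Dusp5 Tprog replicate 2). The Ccl3 peak at 17572 bp was higher in Ttad than in Tprog in both, by 1.22 (SE 0.08) and 0.89 (SE 0.08). It was lower than in Tterm in both, by -0.42 (SE 0.08) and -0.89 (SE 0.08). Ttad against Tterm called 7 members in Zfp219 cells (1.75% of all peaks) and 17 in Dusp5 cells (7.34%). Each library left out moved the Zfp219 count, to 2 and 3 without Ttad replicates 1 and 2 and to 1 and 2 without Tterm replicates 1 and 2. The Dusp5 count was 9 without aged Dusp5 Tterm replicate 2.

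Of the 18 Xcl1 peaks, 11 were higher in OTC cells from aged hosts. Averaged over Tprog, Ttran and Tterm, 15 members were called between aged and young OTC cells (36.5% of all peaks), 11 higher in aged hosts (17.3%) and 4 lower (19.1%). The 11 that were higher were all Xcl1 peaks, and the 4 that were lower were 2 peaks each of Ccl4 and Ccl5. The share over all 33 members is near that over all peaks, and it is the direction that divided the genes: the median difference was 0.43 over the Xcl1 peaks, -0.03 over Ccl3, -0.25 over Ccl4 and -0.13 over Ccl5, beside 0.00 over all peaks.

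The widest age difference was at the Xcl1 peak 52272 bp upstream. It read 253 and 265 in aged OTC Tprog, 308 and 261 in Ttran, and 174 and 197 in Tterm, against 173 and 107, then 138, 131 and 116, and then 56.9, 55.8 and 73.7 in young hosts. Every aged OTC library of these populations lay above every young one, with a difference of 1.21 (SE 0.13, adjusted p = 3.55e-13). At the peak 39786 bp upstream (chr1:164975308-164976818), aged OTC values were 849 and 812 in Tprog, 1088 and 950.1 in Ttran and 791 and 795 in Tterm. Young values were 625 and 660 in Tprog, 699, 743 and 607 in Ttran, and 497, 506 and 552 in Tterm. Here too the lowest aged value exceeded the highest young one, and the difference was 0.52 (SE 0.05, adjusted p = 1.70e-13). The Xcl1 start peak differed by 0.40 (SE 0.07, adjusted p = 2.44e-06) and the strongest peak at 30287 bp by 0.33 (SE 0.05, adjusted p = 1.67e-08).

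On chromosome 11, 4 peaks were called between the ages, and all 4 were lower in aged hosts. The strongest Ccl4 peak was lower in aged OTC cells by -0.26 (SE 0.06, adjusted p = 0.000231) and the second Ccl4 body peak by -0.29 (SE 0.06, adjusted p = 8.00e-05). The Ccl5 peaks at 10321 bp and 1090 bp were lower by -0.45 (SE 0.11, adjusted p = 0.000517) and -0.85 (SE 0.19, adjusted p = 0.000231).

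The step from Tprog to Tterm itself differed with age at 5 members (2.32% of all peaks), all with a negative difference (1.81%), 1 of Ccl3, 2 of Ccl5 and 2 of Xcl1. At the Ccl3 peak 6367 bp from the gene the aged step exceeded the young one by -0.58 (SE 0.09, adjusted p = 1.47e-05), and this call held in every fit that left out 1 library. The ages lay closer together there with the other guides. The steps were -0.80 in aged and -0.54 in young Zfp219 cells, and -1.08 and -0.71 in Dusp5 cells. Whether the step differed with age in those guides was not tested. At the Xcl1 peak at 9815 bp the difference was -0.99 (SE 0.21, adjusted p = 0.00139), which was -0.80 (adjusted p = 0.0549) without aged OTC Tterm replicate 2. A negative value means a wider step in aged hosts at the CC chemokine peaks, and a narrower one at the Xcl1 peaks. The count was 3 without aged OTC Tprog replicate 1 or 2, young OTC Tprog replicate 1 or 2, or young OTC Tterm replicate 1, and 2 without aged OTC Tterm replicate 1 or 2. It was 2 under quantile normalization.

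The Zfp219 and Dusp5 guides were each compared with the same OTC libraries, so both comparisons share their controls. Accessibility does not measure whether the guides cut, and the targeted genes were not checked here. In aged hosts, averaged over the 4 populations, Zfp219 cells had lower values than OTC cells at Xcl1 and higher ones at part of Ccl4 and Ccl5. Of the members, 16 were called (25.8% of all peaks), 11 lower (13.7%) and 5 higher (12.1%). The lower members were 7 of Xcl1, 2 of Ccl3, 1 of Ccl4 and 1 of Ccl5. The median difference was -0.16 over the Xcl1 peaks, 0.23 over Ccl4, 0.11 over Ccl5 and -0.09 over Ccl3, beside 0.01 over all peaks.

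At the Xcl1 peak 39786 bp upstream, aged Zfp219 values were 667 and 673 in Tprog, 637 and 654 in Ttran, 619 and 643 in Tterm, and 655 and 676 in Ttad. All 8 lay below all 8 aged OTC values, of which Ttad read 944 and 966, and the difference was -0.45 (SE 0.05, adjusted p = 4.22e-12). The strongest Xcl1 peak, at 30287 bp, read 1184 and 1122 in Zfp219 Tprog against 1366 and 1247 in OTC Tprog. In Ttad it read 980 and 905 against 1343 and 1384, and the difference over the 4 populations was -0.40 (SE 0.04, adjusted p = 2.79e-12). The peak at 52272 bp read 152 and 124 in Zfp219 Ttad against 257 and 293 in OTC Ttad, and its difference over the 4 populations was -0.77 (SE 0.12, adjusted p = 2.26e-07). The peaks at 17135 bp (chr1:164952657-164954229), chosen for mention after its values were seen, and 9815 bp differed by -0.51 (SE 0.08) and -0.36 (SE 0.08).

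At the start peak of Xcl1 the Zfp219 difference was -0.19 (SE 0.07, adjusted p = 0.0191), a call that ended without aged OTC Tprog replicate 1 (-0.15, adjusted p = 0.102), aged OTC Ttad replicate 1 (-0.17, adjusted p = 0.061), aged OTC Tterm replicate 1 (-0.17, adjusted p = 0.0646) or aged Zfp219 Ttad replicate 2 (-0.17, adjusted p = 0.0643). Whether it differed from the upstream peaks was not tested.

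On chromosome 11, the strongest Ccl4 peak read 641 and 615 in aged Zfp219 Ttad against 521 and 431 in OTC Ttad, and 381 and 426 against 333 and 372 in Tprog. Over the 4 populations it was higher by 0.26 (SE 0.05, adjusted p = 0.000132), and the second Ccl4 body peak by 0.21 (SE 0.06, adjusted p = 0.00368). The Ccl5 peak at 10321 bp read 142 and 121 in Zfp219 Tprog against 84.9 and 79.0 in OTC Tprog, and 130 and 167 against 90.5 and 73.9 in Ttad, whereas in Ttran the OTC values of 250 and 210.4 lay above the 185 and 186 of Zfp219. Its mean difference was 0.35 (SE 0.10, adjusted p = 0.00546). The weak Ccl5 peak at 1090 bp was higher by 0.80 (SE 0.18, adjusted p = 0.000294). At Ccl3 the 10502-bp peak was lower by -0.22 (SE 0.06, adjusted p = 0.00582) and the 17572-bp peak by -0.13 (SE 0.04, adjusted p = 0.0108); under quantile normalization the latter was -0.06 (adjusted p = 0.276).

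**Figure D4:**
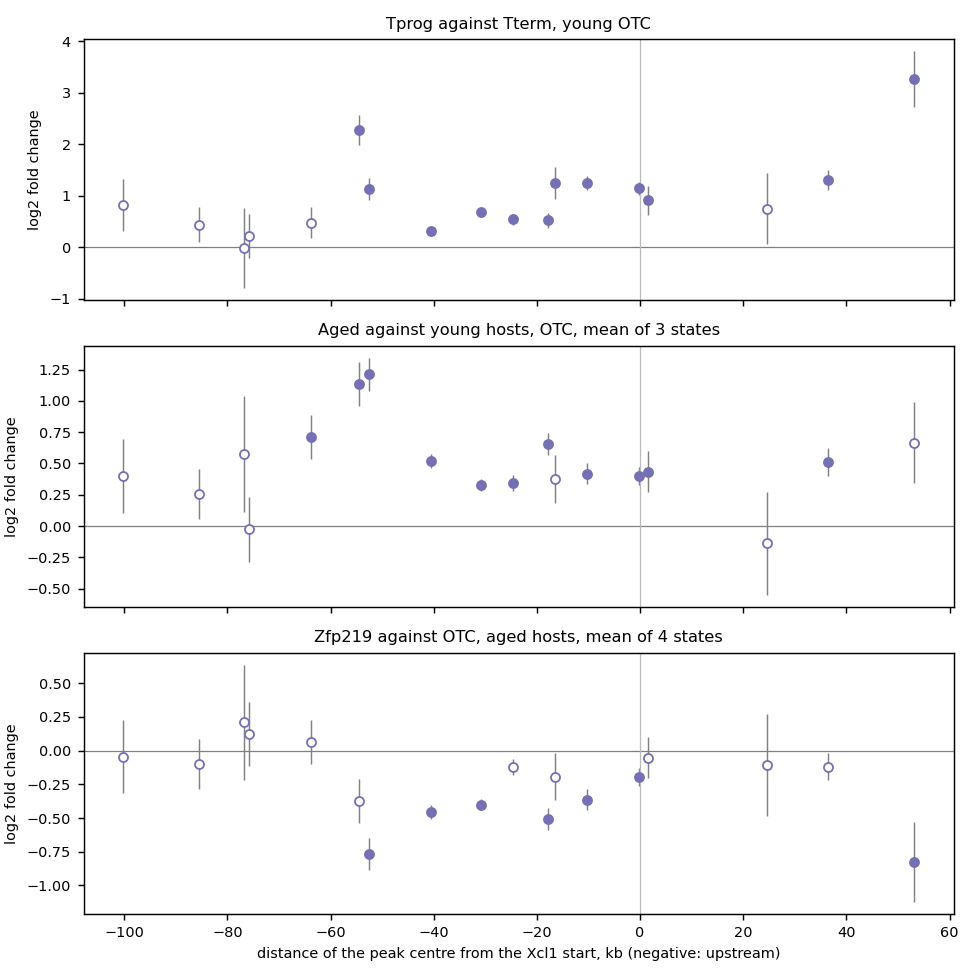
Log2 fold change ± SE at the 18 Xcl1 peaks against the distance of the peak centre from the Xcl1 start in kb (x axis, negative upstream), for Tprog against Tterm in young OTC cells, aged against young OTC cells, and Zfp219 against OTC in aged hosts. Filled points were called; 12 peaks are called and above 0 in the first panel and 11 in the second, and the 7 called in the third lie below 0.

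Within aged Ttad alone, 8 members were called between Zfp219 and OTC (8.23% of all peaks), 5 Xcl1 peaks lower (4.56%) and 3 peaks of Ccl4 and Ccl5 higher (3.66%). The count was 5 without aged Zfp219 Ttad replicate 1 and 4 without replicate 2. The Xcl1 peaks at 9815 bp (-0.72, SE 0.15, adjusted p = 0.000612), 30287 bp (-0.53, SE 0.09, adjusted p = 9.07e-06) and 39786 bp (-0.52, SE 0.10, adjusted p = 0.000173) were called whichever of these libraries was left out. In Ttad the 9815-bp peak read 357 and 360 with the Zfp219 guide and 599 and 586 with OTC.

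In young hosts the Zfp219 guide gave 6 calls (7.07% of all peaks), all lower (5.15%). The count was 3 without young OTC Tprog replicate 2 or young OTC Ttran replicate 1, and 2 under quantile normalization. The Xcl1 peak at 30287 bp was lower by -0.20 (SE 0.04, adjusted p = 0.000999), the Ccl5 peak at 5990 bp by -0.32 (SE 0.07, adjusted p = 0.000915) and the Ccl3 peak at 6367 bp by -0.16 (SE 0.04, adjusted p = 0.00124); the last was -0.08 (adjusted p = 0.16) under quantile normalization. The Zfp219 difference in aged hosts exceeded that in young hosts in size at the Xcl1 peak 39786 bp upstream, with a difference of -0.39 (SE 0.08, adjusted p = 0.000238) over Tprog, Ttran and Tterm. In all, 4 members differed in this way (9.11% of all peaks), 2 with a higher (4.09%) and 2 with a lower value (5.01%) in aged hosts, or 3 and 1 under quantile normalization. The count was 2 without young OTC Tprog replicate 2.

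In aged hosts 5 members were called between Dusp5 and OTC cells (12.2% of all peaks), all lower (7.87%): the Ccl3 peak at 17572 bp (-0.19, SE 0.04, adjusted p = 0.000423), the Ccl5 peaks at 3450 bp (-0.17, SE 0.04, adjusted p = 0.00122), 5990 bp (-0.27, SE 0.07, adjusted p = 0.00337) and 10321 bp (-0.34, SE 0.10, adjusted p = 0.0132), and the Xcl1 peak at 30287 bp (-0.15, SE 0.04, adjusted p = 0.0111). Without aged OTC Tterm replicate 1 the count was 3, with -0.29 (adjusted p = 0.0645) at the Ccl5 10321-bp peak and -0.11 (adjusted p = 0.107) at the Xcl1 peak. Under quantile normalization it was also 3, with -0.10 (adjusted p = 0.122) at the Ccl3 peak, -0.06 (adjusted p = 0.361) at the Ccl5 3450-bp peak and -0.06 (adjusted p = 0.405) at the Xcl1 peak. In aged Ttad alone 1 member was called (2.88%) and was lower (1.67%), the Ccl5 peak at 3450 bp (-0.35, adjusted p = 0.00492), which was -0.26 (adjusted p = 0.135) without aged OTC Ttad replicate 2; without aged Dusp5 Ttad replicate 1 the count was 2.

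In young Dusp5 cells 6 members were called (3.82% of all peaks), 4 Xcl1 peaks higher (1.80%) and 2 others lower (2.02%). The Xcl1 peak at 39786 bp read 731 and 737 in Dusp5 Tprog against 625 and 660 in OTC Tprog, and 575, 625 and 605 against 497, 506 and 552 in Tterm. Its difference was 0.21 (SE 0.05, adjusted p = 0.00621). The count fell to 2 without young Dusp5 Tprog replicate 1 or young OTC Tprog replicate 2, and to 3 without young Dusp5 Ttran replicate 3, young OTC Tterm replicate 1 or young OTC Ttran replicate 2. It was 3, all higher, under quantile normalization. The Dusp5 difference in aged hosts differed from that in young hosts at 2 members (4.0% of all peaks), both lower (2.73%), among them the Xcl1 peak at 39786 bp (-0.30, SE 0.08, adjusted p = 0.0115), which was -0.24 (adjusted p = 0.0674) without aged Dusp5 Tterm replicate 2. The count was 1 without aged Dusp5 Tprog replicate 1 or 2, aged Dusp5 Ttran replicate 1, aged OTC Tprog replicate 1, aged OTC Tterm replicate 1, young Dusp5 Ttran replicate 2 or young OTC Ttran replicate 3, and under quantile normalization. It was 4 without young Dusp5 Tterm replicate 2 or young Dusp5 Ttran replicate 3 and with the weakest 25% of peaks left out, and 5 with edgeR.

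Set directly against each other in aged hosts, a comparison added after seeing the data, Zfp219 and Dusp5 cells differed at 15 members (22.3% of all peaks), with 10 Xcl1 peaks lower (10.7%) and 2 Ccl4 and 3 Ccl5 peaks higher (11.6%) in Zfp219 cells. The Xcl1 peak at 39786 bp was lower by -0.38 (SE 0.05, adjusted p = 7.61e-09) and the peak 48721 bp downstream by -1.29 (SE 0.30, adjusted p = 0.000622). The Ccl5 peaks at 10321 bp and 5990 bp were higher by 0.69 (SE 0.10, adjusted p = 8.07e-08) and 0.38 (SE 0.07, adjusted p = 1.64e-05). In young hosts 9 members were called (8.16%), all lower in Zfp219 cells (5.40%), 7 of them Xcl1 peaks.

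The 21 groups were ordered by the summed value of the peaks of each gene. For Ccl3 the 6 Tprog groups were the lowest, from 2269 ± 98.0 (SD, n = 2) in aged Dusp5 to 2837 ± 28.3 (SD, n = 2) in young OTC. The 3 Ttad groups came next, from 3170 ± 37.8 (SD, n = 2) in Dusp5 to 3648 ± 16.3 (SD, n = 2) in Zfp219, and the 12 Ttran and Tterm groups ran from 4362 ± 128 (SD, n = 3) in young Zfp219 Tterm to 5306 ± 5.58 (SD, n = 2) in aged OTC Tterm. Neighbours in this order did not overlap in 7 of 20 cases, among them the steps from Tprog to Ttad and from Ttad to the rest. Within the Ttran and Tterm block, only the step up to aged OTC Tterm had no overlap.

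For Ccl4 the order ran from aged OTC Tprog, 948 ± 12.8 (SD, n = 2), to young OTC Tterm, 2209 ± 137 (SD, n = 3), and 6 of 20 neighbouring pairs did not overlap. For Ccl5 it ran from aged OTC Tprog, 2315 ± 27.3 (SD, n = 2), to aged OTC Tterm, 4094 ± 10.7 (SD, n = 2), with 4 such pairs. In both genes the 9 Tprog and Ttad groups filled the lowest places, with aged Dusp5 Ttad among the Tprog groups. For Xcl1 the lowest groups were young Zfp219 Tterm, 2808 ± 74.1 (SD, n = 3), and young OTC Tterm, 2833 ± 80.1 (SD, n = 3), which overlapped. The highest were aged OTC Tprog, 5979 ± 316 (SD, n = 2), aged OTC Ttad, 5883 ± 215 (SD, n = 2), aged Dusp5 Ttad, 5795 ± 329 (SD, n = 2), and aged Dusp5 Tprog, 5762 ± 79.5 (SD, n = 2), each overlapping its neighbour. Ttran, Tprog and Ttad groups were mixed in the upper part of this order. Young Tprog groups lay below the highest 4, between 4673 ± 301 (SD, n = 2) with Zfp219 and 5275 ± 260 (SD, n = 2) with Dusp5.

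Across the 21 group means, which share libraries, depth and normalization within a group, peaks of the CC chemokine genes with a mean of at least 50 varied together. The median Pearson r of log2 values was 0.94 over pairs of Ccl3 peaks, 0.90 between Ccl3 and Ccl4, 0.82 between Ccl3 and Ccl5, 0.84 between Ccl4 and Ccl5, and 0.81 over pairs of Xcl1 peaks. The same limit kept 13 of the 18 Xcl1 peaks in these pairs and left out the peak 48721 bp downstream. Each of the 13 had a negative r with every Ccl3, Ccl4 and Ccl5 peak, from -0.89 to -0.05. On other chromosomes, the peaks whose group means were most like the strongest Ccl3 peak were assigned to St3gal6 (r = 0.98), Zcwpw2 (r = 0.97) and Gsap (r = 0.97). Those most like the strongest Ccl4 peak were assigned to Tatdn1 (r = 0.97), Pik3ap1 (r = 0.96) and Wscd2 (r = 0.96), and those most like the strongest Ccl5 peak to Id2 (r = 0.92), Pstpip1 (r = 0.91) and Snx9 (r = 0.90). For the strongest Xcl1 peak they were assigned to Cd83 (r = 0.95), Myo3b (r = 0.94) and Dip2b (r = 0.94). The search covered 30978 peaks for the chromosome 11 genes and 31520 for Xcl1.

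The farthest Xcl1 member, 99985 bp from the gene, had a mean of 27.9, and the next peak beyond it, assigned to Tbx19, had a mean of 106. On chromosome 11, the outermost Ccl5 member, at 19184 bp, had a mean of 607, and the next peak, assigned to Ccl9, a mean of 57.6.

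Among 30 other chemokine ligand genes, 19 had at least 1 peak, 56 in all. Between aged OTC Tprog and Tterm 1 of them was called higher in Tprog (8.88% of all peaks) and 14 lower (11.2%), with a median difference of -0.05. In young OTC cells 4 were called higher (13.9%) and 19 lower (12.6%), with a median of -0.27. The peak of Ccl9, a neighbour of Ccl5 whose product also binds Ccr1, at chr11:83558510-83559639 was lower in Tprog by -3.07 (SE 0.32) in aged and -1.90 (SE 0.29) in young hosts. Between aged and young OTC cells 18 of the 56 were called higher (17.3% of all peaks) and 7 lower (19.1%). With the Zfp219 guide in aged hosts, 1 of the 56 was called higher than in OTC cells (12.1%) and 14 lower (13.7%). The median of that difference was -0.19 over the 56. A peak in Cx3cl1, which encodes the membrane-bound chemokine fractalkine, was higher in aged OTC cells by 1.51 (SE 0.09) and lower in aged Zfp219 than in aged OTC cells by -1.0 (SE 0.08).

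The receptor genes Ccr1, Ccr3 and Xcr1 had 18 peaks. Between aged OTC Tprog and Tterm 1 was called higher in Tprog (8.88% of all peaks) and 11 lower (11.2%), with a median of -0.75. In young OTC cells 1 was called higher (13.9%) and 11 lower (12.6%), with a median of -0.41. Between aged and young OTC cells 3 peaks of Ccr1 were called higher (17.3%) and 5 of Ccr3 lower (19.1%). Under the Zfp219 guide in aged hosts 3 peaks, all of Ccr3, were called higher than in OTC cells (12.1%).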

How the data were processed

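ATAC-seq was measured in 48 libraries of sorted tumour T cells. Per the submitters' processing notes, the tools were Bowtie2 2.2.9, Picard 2.8.0, SAMtools 1.3.1, MACS2 2.1.1 and DESeq2 1.28.1 with build mm10. The deposited signal values are read counts per peak that the authors divided by a factor per library, as read from the values, since all of them were whole multiples of 1 step per library. Peaks were assigned with RefSeq gene bodies. limma 3.58.1 in R 4.3.3 was fitted with trend on log2(value + 1) over all 48 libraries as group means, with Benjamini-Hochberg adjustment over 53868 peaks and calls at 0.05. No low-value filter was applied, so all 33 members were tested. Alternatives were a pseudocount of 8, leaving out the weakest 25% of peaks, quantile normalization, a replicate block, edgeR 4.0.16 on the recovered reads, and leaving out each library. Named with values were, for each gene, its 3 strongest peaks by mean, the peaks that hold the start of the gene, and any member whose called difference reached 1 on the log2 scale in either direction; peaks outside that rule are said to be chosen after their values were seen. One gene each of the receptor and B cell lists is not reported here. The members and lists were chosen with earlier results of these data known, and 10 comparisons were added after seeing the data. On simulated data for aged OTC Tprog against Tterm, with 200 of 53868 peaks changed 2-fold, limma recovered 71.0% with 4 false calls. The changed peaks were drawn from those above the weakest 25%, and the variance of the reads was set at 3 times the mean. Between library pairs of a group it was 2.79 to 4.53 times that of counting alone. In the data 20.1% of all peaks were called there, so the simulated rates do not carry over to them or to weak peaks.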

Additional observations from a re-analysis of the deposited data

Results flagged for a closer look

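At 11 results the difference itself differed between aged and young hosts, by the interaction term of limma (adjusted p under 0.05). The Zfp219 difference was higher in aged than in young hosts by 0.33 at the second Ccl4 body peak and by 0.37 at the Ccl5 peak at 5990 bp, and lower by -0.39 at the Xcl1 peak at 39786 bp and by -0.58 at the Xcl1 peak at 52272 bp. The Dusp5 difference was lower in aged hosts by -0.41 at the Xcl1 peak at 17135 bp and by -0.30 at the Xcl1 peak at 39786 bp; the peak at 17135 bp was chosen for mention after its values were seen. The step from Tprog to Tterm differed by -0.58 at the Ccl3 peak at 6367 bp, -0.40 at the Ccl5 peak at 3450 bp, -0.52 at the Ccl5 peak at 19184 bp, -0.99 at the Xcl1 peak at 9815 bp and -0.44 at the Xcl1 peak at 30287 bp.

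The calls at the Ccl4 peak, at the Xcl1 39786-bp peak for Zfp219 and at the Ccl3 peak held in every fit that left out 1 library. The Ccl5 call at 5990 bp ended without aged OTC Tterm replicate 1 (0.31, adjusted p = 0.0613), aged Zfp219 Tterm replicate 2 (0.33, adjusted p = 0.0556) or young OTC Tprog replicate 2 (0.30, adjusted p = 0.0704). The Xcl1 call at 30287 bp ended without aged OTC Tprog replicate 2 (-0.38, adjusted p = 0.163), aged OTC Tterm replicate 1 (-0.27, adjusted p = 0.399), young OTC Tprog replicate 1 (-0.39, adjusted p = 0.132) or young OTC Tterm replicate 1 (-0.38, adjusted p = 0.0909). The Xcl1 call at 9815 bp ended without aged OTC Tterm replicate 2 (-0.80, adjusted p = 0.0549), and the Dusp5 call at 39786 bp without aged Dusp5 Tterm replicate 2 (-0.24, adjusted p = 0.0674). The Ccl5 calls at 3450 bp and 19184 bp and the Xcl1 calls at 17135 bp and 52272 bp each ended when any 1 of several libraries was left out.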

How the results depend on the processing

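Of 357 calls at member peaks, 231 held in every fit that left out 1 library and 126 did not. Quantile normalization ended 28 of the 357, the replicate block 5, edgeR 4 and the pseudocount of 8 ended 1. No result changed direction. Under quantile normalization the count of members called moved from 6 to 2 for Zfp219 in young hosts, from 5 to 3 for Dusp5 in aged hosts, from 1 to 0 for Dusp5 in aged Ttad, from 6 to 3 for Dusp5 in young hosts, from 2 to 1 for the Dusp5 difference between ages and from 5 to 2 for the Tprog to Tterm difference between ages. The Dusp5 difference between ages gave 4 with the weakest 25% of peaks left out and 5 with edgeR. The cause was not tested.

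With 1 library left out, counts ran from 0 to 1 for aged OTC Ttran against Tterm, 7 to 9 for aged OTC Ttad against Tprog, 4 to 6 for Zfp219 in aged Ttad, 3 to 7 for Zfp219 in young and for Dusp5 in aged hosts, 0 to 2 for Dusp5 in aged Ttad, 2 to 6 for Dusp5 in young hosts, 2 to 5 for the Zfp219 and 1 to 4 for the Dusp5 difference between ages, and 2 to 5 for the Tprog to Tterm difference between ages. For Ttad in the other guides they ran from 6 to 8 (against Tprog) and 1 to 3 (against Tterm) in Zfp219 cells, and from 4 to 7 and 9 to 14 in Dusp5 cells.

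Libraries with the same replicate number did not deviate together (correlations from -0.0148 to 0.0146 in aged and -0.0184 to 0.0170 in young pairs). Whether such libraries came from the same mice is not stated, and these correlations cannot decide it. With the replicate block, aged OTC Tprog against Tterm called 10814 of all peaks, beside 10806 without it. Its largest effect on such a count was for aged against young OTC, 16293 beside 19651, and young OTC Tprog against Tterm gave 13911 beside 14279. The block terms were set within each age. With them, aged against young was estimated at a single replicate number of each age and not over all replicates. The fall in that count therefore does not measure how replicates affect the age calls. The weak Xcl1 peak at 48721 bp had a median of 19 recovered reads per library and a lowest of 2. The part of depth in its precision was not tested.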
